A study of Homo sapiens with 40 samples.

Results

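The genes described here are 39 targets of p53 and regulators of apoptosis, taken from a list of gene symbols and followed through shRNA knockdown of OCT4, NANOG and SOX2 in human embryonic stem cells. Of the 39 members, 37 had a named probe on the bead array (FDXR and BTG2 had none) and 35 passed the filter on dim probes, out of 13544 genes tested. FAS, a death receptor, and PLK3, a stress kinase, had named probes but stayed at background, with late mean log2 levels between 6.13 ± 0.06 and 6.45 ± 0.18 for FAS and between 6.24 ± 0.07 and 6.43 ± 0.28 for PLK3 in the H1 arms. The members were kept in 3 groups: 24 p53 targets outside the BCL2 family (20 passed), 11 members of the BCL2 family (11 passed), and 4 caspases and caspase regulators (4 passed). Because FAS, PLK3, FDXR and BTG2 were not tested, the counts below do not cover all members.

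Both lines used, H1 and H9, are long-established lines of human embryonic stem cells. The cells grew on Matrigel in mTeSR medium, and lentivirus was added together with polybrene. The 5 arms were H1 cells with control virus (H1P), H1 cells with shRNA against NANOG, OCT4 or SOX2, and H9 cells with shRNA against OCT4, with 1 array on each day from day 0 to day 7. The array of NANOG shRNA on day 7 was left out because its values lay on another scale (median 6.80, against 135.6 to 135.7 on the other arrays), which left 39 of 40 arrays. All arms, the control included, carried a lentivirus, and H9 had no control arm of its own. Each arm was 1 time course, so the days of a window stand in for replicates and the p-values reflect how far days scatter within a window, not the spread between cultures. The labels do not give the hairpin sequences or say whether cells were selected or cloned. Values are log2 levels of background-corrected intensity; 6.57 is the background level, and differences are log2 differences with their SE. A call is an adjusted p under 0.05 from limma with Benjamini-Hochberg adjustment over all 13544 genes. In these bulk samples fewer cells of a type and less RNA per cell cannot be told apart, and levels of different probes are not compared with each other.

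p53 is a transcription factor that is stabilised when DNA is damaged or cells are stressed. Its targets halt the cell cycle (CDKN1A, GADD45A), repair DNA (XPC, DDB2, RRM2B), restrain p53 itself (MDM2) and promote cell death. In the mitochondrial pathway of apoptosis, BAX and BAK1 form pores in the outer membrane, BCL2, BCL2L1 and MCL1 hold them in check, and the BH3-only proteins PMAIP1 (NOXA), BBC3 (PUMA), BCL2L11 (BIM), BID, BIK and BMF relieve that check. Cytochrome c released through the pores binds APAF1, which activates CASP9, while XIAP blocks caspases and CASP8 acts below the death receptors. Human pluripotent stem cells are known to sit close to the threshold of this pathway. Most of these genes are also driven by factors other than p53, and the levels measured here are of mRNA. The gene of p53 itself was not analysed here.

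Promoter sequences are shown for 3 members on which the results below turn or whose promoter carries the classical p53 element. PMAIP1 had the largest late difference with OCT4 shRNA, DDB2 moved in opposite directions in the 2 lines, and MDM2 is the feedback target of p53. The windows run from 250 bases before to 50 bases after the annotated start, 5′ to 3′, from RefSeq with the build GRCh38.p14. Capitals mark the p53 element in DDB2 and MDM2 and, in PMAIP1, the core ACGTCA of a cAMP response element, a site type bound by factors of the CREB and ATF family.
PMAIP1, chr18:59899746-59900045, plus strand: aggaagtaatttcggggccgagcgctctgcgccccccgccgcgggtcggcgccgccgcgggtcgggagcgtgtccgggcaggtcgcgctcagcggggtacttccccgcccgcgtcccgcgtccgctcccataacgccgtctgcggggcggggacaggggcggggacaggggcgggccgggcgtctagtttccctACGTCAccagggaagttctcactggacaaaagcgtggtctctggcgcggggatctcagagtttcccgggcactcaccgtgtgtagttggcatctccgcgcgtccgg
DDB2, chr11:47214724-47215023, plus strand: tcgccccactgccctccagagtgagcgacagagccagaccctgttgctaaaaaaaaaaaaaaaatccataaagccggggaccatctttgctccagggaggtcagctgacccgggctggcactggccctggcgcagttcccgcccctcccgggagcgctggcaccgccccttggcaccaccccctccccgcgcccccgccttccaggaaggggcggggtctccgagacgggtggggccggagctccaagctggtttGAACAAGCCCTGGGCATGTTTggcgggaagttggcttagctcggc
MDM2, chr12:68808767-68809066, plus strand: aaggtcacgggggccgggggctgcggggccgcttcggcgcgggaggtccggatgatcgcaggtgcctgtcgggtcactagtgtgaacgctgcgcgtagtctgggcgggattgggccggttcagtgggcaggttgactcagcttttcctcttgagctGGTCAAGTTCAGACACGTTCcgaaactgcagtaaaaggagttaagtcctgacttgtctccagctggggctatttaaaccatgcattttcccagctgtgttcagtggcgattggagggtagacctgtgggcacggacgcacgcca

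A RefSeq promoter window was found for 32 members (53 windows, since some genes have several starts). The p53 consensus element, searched with up to 2 mismatches and a spacer of at most 1 base, was present in 5 windows of 4 members (DDB2, MDM2, AEN and FAS), against 187 of all 35116 windows (0.533%). The DDB2 element had 0 mismatches and lay at bases 6 to 26 after the start. In MDM2 the element, with 2 mismatches, lay at bases -94 to -75, and it is counted in 2 windows that overlap. The core ACGTCA, read on both strands, was in 5 of the 53 member windows (PMAIP1, PLK2, TIGAR, XIAP and XPC) and in 7.98% of all windows. It was added after the PMAIP1 values and window had been seen. In PMAIP1 it lay at bases -56 to -51, and no p53 element was found in this window. The octamer ATGCAAAT, the motif OCT4 binds, read on both strands, was found in 1 of the 53 member windows (APAF1) and in 1.77% of all windows. These matches describe letters in short windows and say nothing on binding, since many p53 sites lie in introns or farther upstream.

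The knockdowns were checked first. With OCT4 shRNA in H1, the OCT4 gene POU5F1 went from 12.33 on day 0 to 6.46 on day 7, a late difference from control of -5.91 ± 0.26. With NANOG shRNA, NANOG differed by -2.11 ± 0.20, and with SOX2 shRNA, SOX2 by -1.99 ± 0.26. The factors not targeted differed as well in some arms. With OCT4 shRNA, NANOG (-2.22 ± 0.19) and SOX2 (-3.55 ± 0.26) were lower, and with NANOG shRNA, POU5F1 was lower (-1.18 ± 0.28). SOX2 with NANOG shRNA (0.09 ± 0.28) did not pass, nor did POU5F1 (-0.06 ± 0.26) or NANOG (-0.0024 ± 0.19) with SOX2 shRNA. In H9, POU5F1 went from 11.85 on day 0 to 8.54 on day 7. Markers of other cell types moved with the arms. In the late H1 OCT4 arm 12 of 13 trophoblast and amnion markers were higher than control (summed intensity 39587 to 49341 against 2205 to 2309). Of 8 mesoderm and fibroblast markers 4 were higher and 2 lower there, with the collagen COL3A1 at least 17.3-fold and LUM at least 16.8-fold higher (summed intensity 6584 to 27987 against 6072 to 8534). In the late NANOG arm 5 of 6 neuroectoderm markers were higher. With H9 OCT4 shRNA the trophoblast and amnion sum was 2469 to 5520, with 9 of the 13 markers at background on all late arrays. Genes of dividing cells were lower for 13 of 14 in the late H1 OCT4 arm (median -0.73). The part of these shifts in the results below was not tested.

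With OCT4 shRNA in H1, p53 targets moved both ways rather than as a block on days 4 to 7. GADD45A, PERP, SPATA18, PLK2, TP53I3, XPC and TIGAR were higher than control, GDF15 and RRM2B were lower, and MDM2 did not pass the test. In the BCL2 family the BH3-only gene PMAIP1 was lower by 2.45 on the log2 scale, the largest difference of any member. MCL1 was lower than control while BCL2L1 was higher. The change within the OCT4 arm over the week was not called for RRM2B (-0.44), MCL1 (-0.25) or BCL2L1 (0.19). Nor was it called for PHLDA3 (0.14), TP53INP1 (0.32), CDKN1A (-0.20), BID (0.27), BCL2L11 (-0.29) or CASP8, whose late differences were called. In all 21 of 35 members (60%) were called, against 47.8% of all genes, 13 higher (23.7% of all genes) and 8 lower (24.2% of all genes). By group, 10 p53 targets were higher and 4 lower (median 0.38 over the 20 tested), 2 BCL2 family members were higher and 4 lower (median -0.13), and CASP8 was the caspase gene called. The median over all genes was -0.0020. Of the 21 calls, 13 held when any array or any day was left out.

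**Figure D1:**
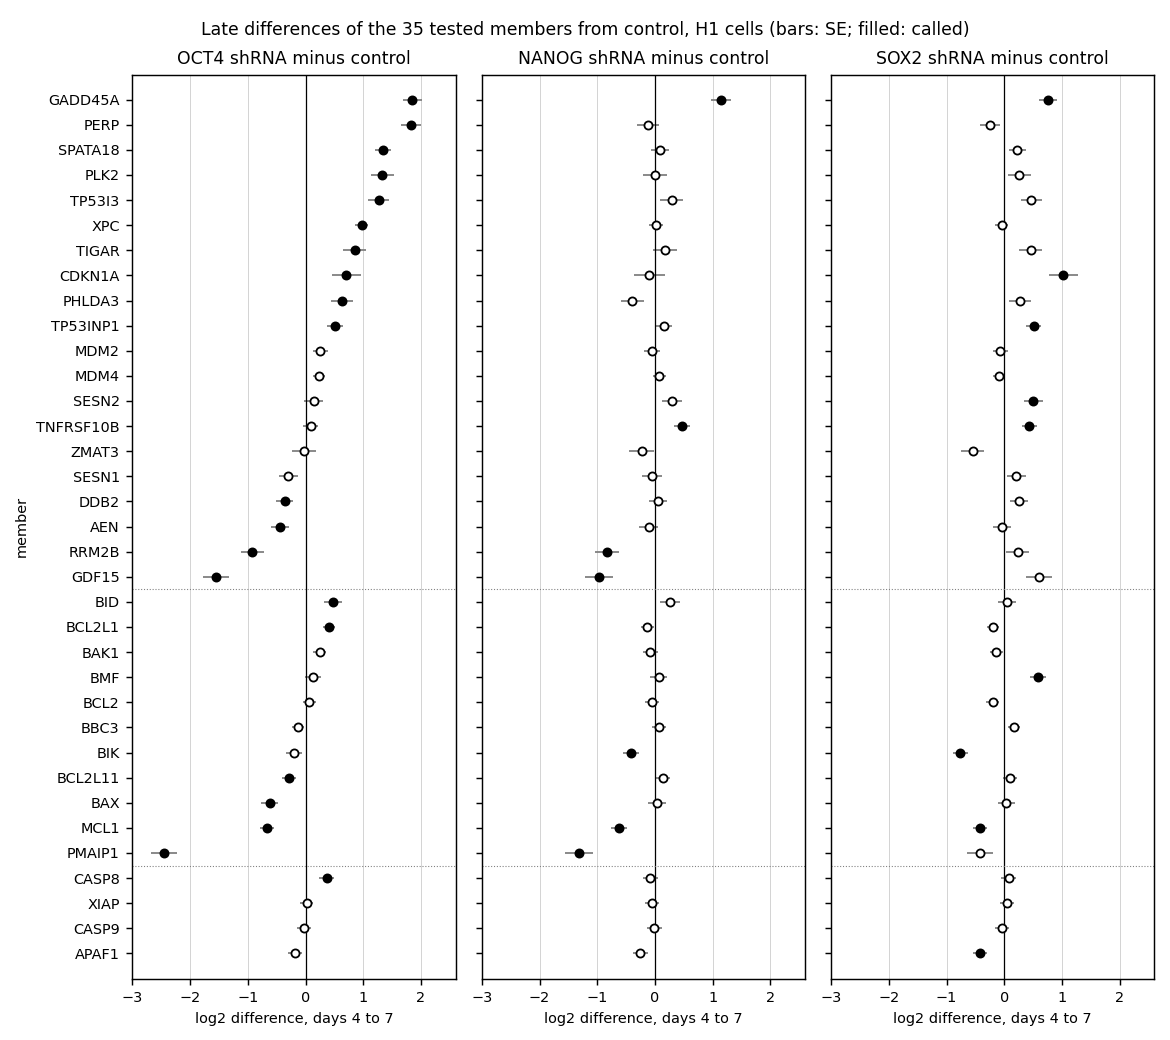
Log2 difference from control on days 4 to 7 (x axis) for each of the 35 tested members (y axis, grouped as p53 targets, BCL2 family, and caspases and their regulators), with 1 panel per knockdown in H1. Bars are the SE and filled points are calls. The NANOG arm had no array of day 7. The OCT4 panel runs from -2.45 (PMAIP1) to 1.85 (GADD45A), GADD45A is right of 0 in each panel, and the 3 panels share the same control arrays.

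GADD45A, which binds PCNA and acts in growth arrest and repair, had the largest positive difference from control. On days 4, 5, 6 and 7 its levels were 8.46, 8.34, 7.95 and 8.13 in control cells and 9.85, 9.96, 10.20 and 10.29 with OCT4 shRNA. The groups did not overlap, and the difference of 1.85 ± 0.16 (adjusted p = 3.95e-11) is 3.61-fold. A second GADD45A probe gave 1.49. PERP, a desmosome and tetraspan membrane protein that p53 and p63 induce, read 7.99, 8.13, 7.68 and 7.82 in control and 9.95, 10.20, 9.38 and 9.38 with OCT4 shRNA. It was highest on day 5 and differed by 1.82 ± 0.17 (adjusted p = 2.96e-10).

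SPATA18, a mitochondrial quality control gene induced by p53, lay near background in control cells (6.82, 6.74, 6.84 and 6.32) and reached 7.53, 8.15, 8.19 and 8.21 with OCT4 shRNA, a difference of 1.34 ± 0.15 (adjusted p = 4.62e-09). PLK2, a kinase of the centriole cycle and stress response, read 6.68, 6.64, 6.73 and 6.56 in control and 7.15, 7.71, 8.53 and 8.54 with OCT4 shRNA. Its OCT4 arm thus spread widely, with days 6 and 7 above days 4 and 5, and the difference was 1.33 ± 0.20 (adjusted p = 1.27e-06). TP53I3 (PIG3), an oxidoreductase, had control levels of 8.50, 8.71, 8.85 and 8.26 and OCT4 shRNA levels of 9.31, 9.91, 9.997 and 10.16, which did not overlap. The difference was 1.26 ± 0.18 (adjusted p = 5.34e-07), but a second, dim TP53I3 probe (mean level 6.56) gave 0.15, which did not pass.

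XPC, which recognises DNA damage for nucleotide excision repair, was tight within arms. Its control levels were 9.97, 10.19, 9.94 and 10.38 and its OCT4 shRNA levels 11.10, 11.22, 11.02 and 11.03, a difference of 0.97 ± 0.11 (adjusted p = 7.95e-09). TIGAR, a phosphatase that restrains glycolysis, read 8.49, 8.35, 8.94 and 8.30 in control and 8.85, 9.25, 9.61 and 9.76 with OCT4 shRNA. The ranges overlapped, since control day 6 lay above OCT4 shRNA day 4, and the difference was 0.85 ± 0.20 (adjusted p = 0.000513).

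CDKN1A (p21), the inhibitor of cyclin-dependent kinases, was the least settled of the larger positive differences. Within the OCT4 arm CDKN1A did not rise over the week by the test (-0.20), as given further below. It read 11.28, 11.02, 10.78 and 10.28 in control, and 10.73, 11.17, 11.99 and 12.30 with OCT4 shRNA. The control course fell with the days while the OCT4 arm dipped and returned, and the groups overlapped. The difference of 0.71 ± 0.25 (adjusted p = 0.0208) lost its call without the control array of day 7 (0.52, adjusted p = 0.11), without the OCT4 array of day 6 (0.56, adjusted p = 0.093) or of day 7 (0.46, adjusted p = 0.14), and was 0.27 without day 7 of all arms.

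GDF15, a secreted stress cytokine, went the other way. Its control levels of 9.40, 9.36, 8.24 and 8.67 lay above every OCT4 shRNA level (7.22, 7.33, 7.34 and 7.56), a difference of -1.55 ± 0.23 (adjusted p = 9.14e-07). RRM2B, the p53-inducible subunit of ribonucleotide reductase, read 9.71, 9.88, 9.70 and 9.36 in control and 8.16, 8.63, 9.07 and 9.11 with OCT4 shRNA. These groups did not overlap either, and the difference was -0.92 ± 0.20 (adjusted p = 0.000232). MDM2, the ubiquitin ligase of p53, read 7.26, 6.71, 6.75 and 7.02 in control and 7.03, 6.90, 7.42 and 7.40 with OCT4 shRNA. The groups overlapped, and the difference of 0.25 ± 0.13 (adjusted p = 0.107) did not pass.

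The remaining p53 targets moved less. PHLDA3, an inhibitor of AKT, was higher by 0.63 ± 0.19 (adjusted p = 0.00561), with the call lost without day 6 (0.51, adjusted p = 0.0733) or day 7 (0.45, adjusted p = 0.0843) of all arms. TP53INP1, a p53 cofactor, was higher by 0.51 ± 0.13 (adjusted p = 0.00171), lost without day 7 (0.28, adjusted p = 0.079). AEN, a p53-induced nuclease, was lower (-0.45 ± 0.16, adjusted p = 0.0182), and leaving out day 4 moved it to -0.21 (adjusted p = 0.297). DDB2, whose promoter element is printed above, was lower (-0.36 ± 0.15, adjusted p = 0.0455), a call that any of 6 single arrays ended, with -0.28 to -0.40 left. MDM4, TNFRSF10B, ZMAT3, SESN1 and SESN2 did not pass, with differences from -0.30 (SESN1) to 0.23 (MDM4), although a dimmer probe passed for ZMAT3 (0.64, adjusted p = 0.011) and for TNFRSF10B (0.40, adjusted p = 0.00666).

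**Figure D2:**
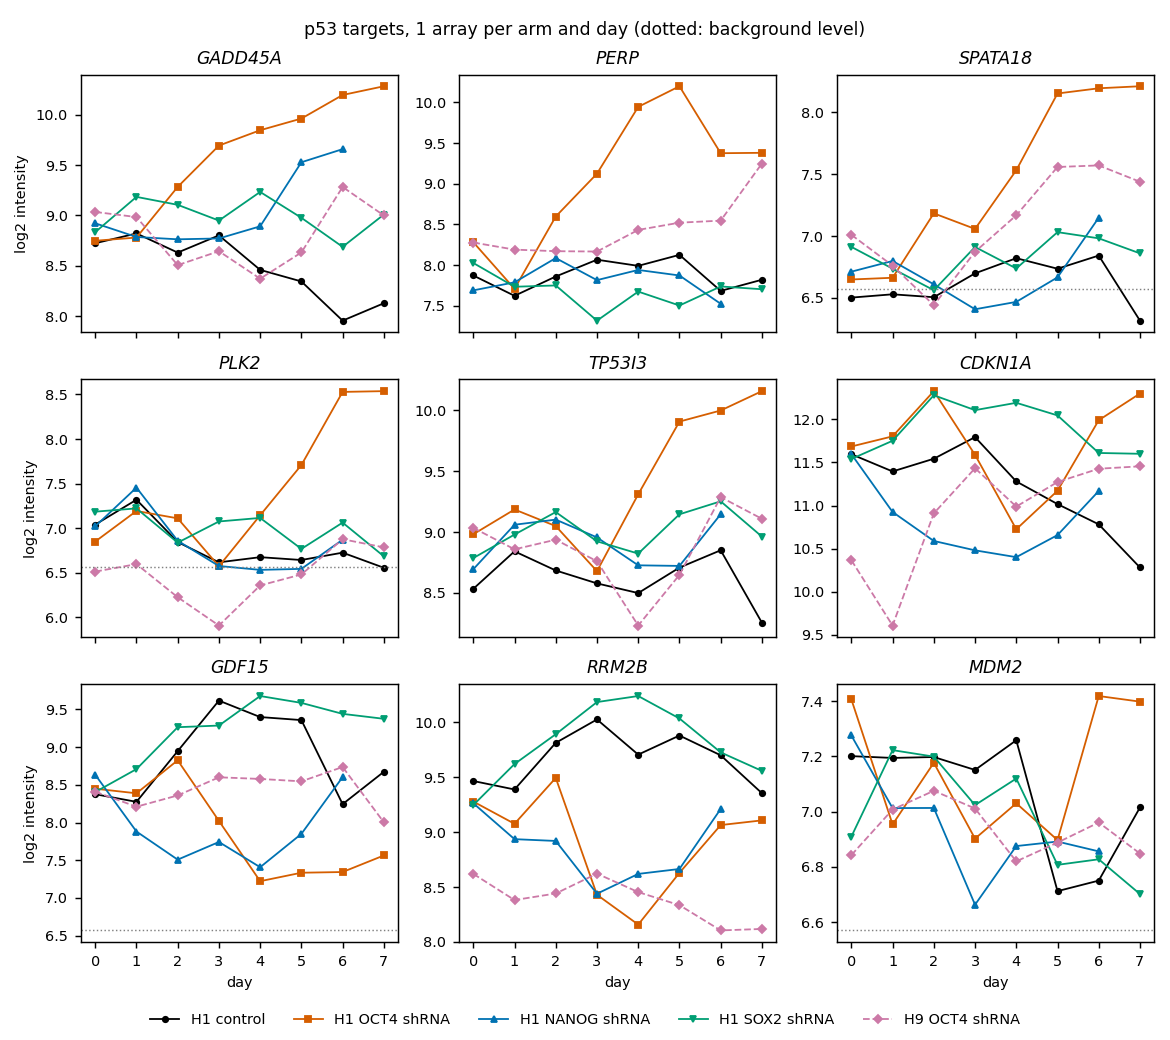
Log2 intensity (y axis) by day (x axis) of 9 p53 targets, 1 line per arm and 1 array per point; the dotted line is the background level of 6.57. With H1 OCT4 shRNA GADD45A climbs from 8.75 on day 0 to 10.29 on day 7 and GDF15 ends at 7.56, while MDM2 stays between 6.90 and 7.42.

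The BCL2 family held the largest negative difference from control. PMAIP1, the BH3-only protein that neutralises MCL1, stayed between 8.69 and 9.45 in late control cells (8.99, 9.27, 8.69 and 9.45) and read 6.89, 6.41, 6.63 and 6.65 with OCT4 shRNA. Of those 4 arrays, that of day 5 lay below the background level. The difference of -2.45 ± 0.23 (adjusted p = 1.19e-10) is 5.47-fold, and a second, dimmer PMAIP1 probe gave -0.82. MCL1, the partner of PMAIP1 that protects cells from death, read 10.68, 10.52, 9.99 and 10.62 in control and 9.77, 9.64, 9.61 and 10.11 with OCT4 shRNA. Only control day 6 lay within the OCT4 range, and the difference was -0.67 ± 0.13 (adjusted p = 4.27e-05). BCL2L1 (BCL-XL), another protector, read 11.44, 11.56, 11.28 and 11.30 in control and 11.96, 11.82, 11.59 and 11.86 with OCT4 shRNA. These groups did not overlap, and it was higher by 0.41 ± 0.10 (adjusted p = 0.00129), with 0.46 from a second probe.

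BAX, the pore former, depended on the probe. The brighter probe read 10.96, 11.15, 10.82 and 11.07 in control and 10.10, 10.25, 10.51 and 10.64 with OCT4 shRNA, a difference of -0.62 ± 0.14 (adjusted p = 0.000507). A second BAX probe with a mean level of 6.90, near background, gave 0.33 (adjusted p = 0.0415), the opposite sign. No direction can be given for the gene as a whole, and which transcripts each probe reads was not analysed here. BBC3, the BH3-only protein most tied to p53, read 8.05, 7.91, 7.72 and 7.88 in control and 7.83, 7.54, 7.71 and 7.96 with OCT4 shRNA and did not pass (-0.13 ± 0.11, adjusted p = 0.343). BCL2 stayed close to the background level, above it on 25 of 39 arrays (6.49, 6.83, 6.74 and 6.53 in control and 6.68, 6.70, 6.87 and 6.61 with OCT4 shRNA, a difference of 0.07 ± 0.11 (adjusted p = 0.66)). BIK, a BH3-only protein of the endoplasmic reticulum, read 6.54, 6.92, 6.95 and 7.13 in control and 6.64, 6.91, 6.80 and 6.38 with OCT4 shRNA, which also did not pass (-0.20 ± 0.13, adjusted p = 0.227).

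BID, the BH3-only substrate of CASP8, was higher by 0.48 ± 0.16 (adjusted p = 0.0132), a call lost without the control array (0.39, adjusted p = 0.0645) or the OCT4 array (0.36, adjusted p = 0.0767) of day 5. Of its other probes 1 gave 0.54 and 1 gave 0.15. BCL2L11 was lower (-0.29 ± 0.12, adjusted p = 0.0494), which 7 of the 8 single late arrays ended when left out, with -0.24 to -0.32 left, and its second probe gave -0.05. BAK1 (0.24 ± 0.12) and BMF (0.13 ± 0.14) did not pass, although a second BMF probe was higher (0.41, adjusted p = 0.0289). CASP8 lay below background on all late control arrays and above it on 1 late OCT4 array, so its call (adjusted p = 0.016) has no fold. Without the OCT4 array of day 7 its adjusted p was 0.0801. APAF1 (-0.18 ± 0.12), CASP9 (-0.03 ± 0.12) and XIAP (0.02 ± 0.11) did not pass.

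Further genes of these pathways, none of them members, also moved both ways, and their counts read against the 23.7% higher and 24.2% lower over all genes. Of 26 further p53 targets tested, 8 were higher and 4 lower. The largest were IGFBP3, the IGF binding protein (5.16 ± 0.46), SFN (14-3-3 sigma, 1.98 ± 0.29), TNFAIP8 (1.04 ± 0.14) and the cyclin CCNG1 (-0.96 ± 0.13). IGFBP3 is also on the list of trophoblast and amnion markers, and SFN is an epithelial gene. Of 12 tested regulators of p53, 1 was higher (TP53BP1, 0.55 ± 0.15) and 5 were lower, led by the checkpoint kinase CHEK2 (-1.58 ± 0.13). Of 22 further apoptosis genes 9 were higher and 4 lower, among them the executioner caspase CASP6 (1.06 ± 0.15), the XIAP antagonist DIABLO (1.04 ± 0.13), the inhibitor BIRC2 (1.00 ± 0.12) and survivin, BIRC5 (-0.94 ± 0.12), which is known to peak in mitosis. Of 14 amino acid and ER stress genes 2 were higher and 7 lower, led by the asparagine synthetase ASNS (-2.23 ± 0.17), and ATF3, which codes for a stress-induced factor of the CREB and ATF family, was higher (1.24 ± 0.21).

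**Figure D3:**
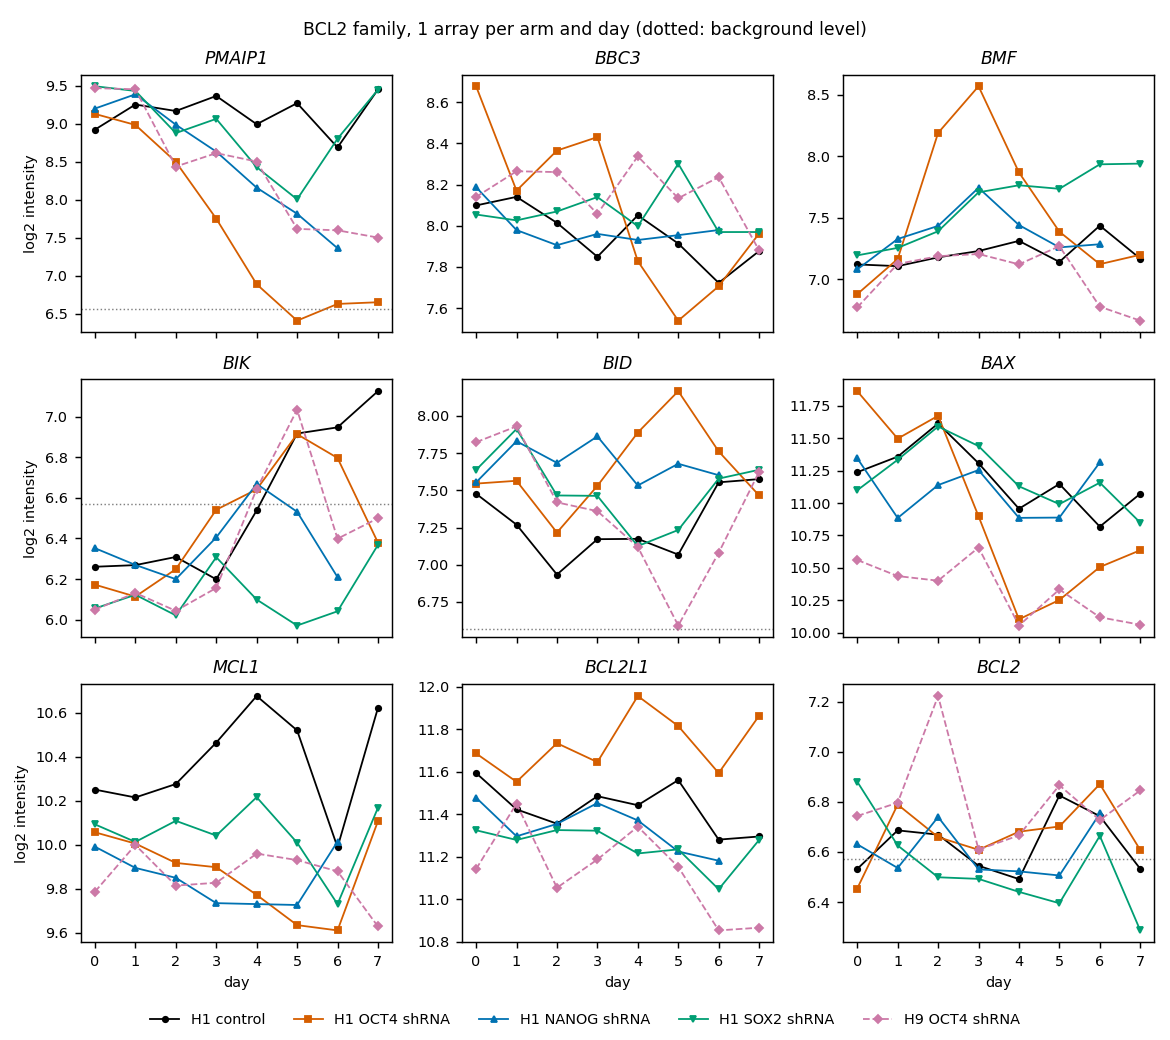
Log2 intensity (y axis) by day (x axis) of 9 BCL2 family members, 1 line per arm and 1 array per point; the dotted line is the background level of 6.57. PMAIP1 leaves the control course with OCT4 and NANOG shRNA in H1 and falls over the week in H9, which has no control arm. BMF peaks at 8.57 on day 3 with H1 OCT4 shRNA while the control reads 7.23.

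With NANOG shRNA on days 4 to 6, set against control on days 4 to 7, GADD45A was higher, while PMAIP1, MCL1, GDF15 and RRM2B were lower. In all, 7 of 35 members (20%) were called, against 15.3% of all genes, 2 higher (7.8% of all genes) and 5 lower (7.48% of all genes). The 20 p53 targets had 2 higher and 2 lower (median 0.0069) and the BCL2 family 3 lower (median -0.054), against a median of 0.0011 over all genes. This comparison shares its control arrays with that of OCT4 shRNA, so likeness between them is not tested here. The change within the NANOG arm over the week was not tested. Differences from control present from the start are therefore not told apart from later ones.

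On days 4, 5 and 6 of NANOG shRNA, GADD45A read 8.89, 9.53 and 9.66, a difference of 1.14 ± 0.17 (adjusted p = 1.80e-05) from the control levels given above. PMAIP1 read 8.16, 7.82 and 7.36, all below control, and differed by -1.32 ± 0.24 (adjusted p = 0.000219), with -0.80 from its second probe. These were the calls that held without any single array or day. MCL1 read 9.73, 9.73 and 10.02 (-0.63 ± 0.14, adjusted p = 0.00133), and without day 5 of all arms it was -0.56 (adjusted p = 0.0505). A second MCL1 probe gave -0.33 and did not pass (adjusted p = 0.135). GDF15 read 7.41, 7.85 and 8.60 and RRM2B 8.62, 8.66 and 9.21, the day 6 level of GDF15 within the control range. GDF15 differed by -0.96 ± 0.24 (adjusted p = 0.00575), and without the NANOG array of day 4 by -0.69 (adjusted p = 0.0752). RRM2B differed by -0.83 ± 0.21 (adjusted p = 0.00644), and without day 5 of all arms by -0.67 (adjusted p = 0.15).

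TNFRSF10B (DR5), a receptor for the death ligand TRAIL, was higher with NANOG shRNA by 0.47 ± 0.14 (adjusted p = 0.0186), and without the array of day 6 by 0.39 (adjusted p = 0.137). Left out in turn, the NANOG array of day 5 (0.46, adjusted p = 0.0645) and the control array of day 6 (0.42, adjusted p = 0.0563) ended this call as well. Other TNFRSF10B probes gave 0.64 (adjusted p = 0.00238) and 0.27 (adjusted p = 0.187). BIK read 6.67, 6.53 and 6.21, above background on 1 of 3 arrays, and its difference of -0.41 ± 0.14 (adjusted p = 0.0482) was lost in most settings, with -0.28 (adjusted p = 0.321) without the NANOG array of day 6.

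The other members given in full did not pass with NANOG shRNA. CDKN1A read 10.40, 10.66 and 11.17 (-0.10 ± 0.27, adjusted p = 0.872), MDM2 6.88, 6.89 and 6.86 (-0.06 ± 0.14, adjusted p = 0.842) and BBC3 7.93, 7.95 and 7.98 (0.06 ± 0.12, adjusted p = 0.793). PERP read 7.94, 7.87 and 7.52, SPATA18 6.47, 6.67 and 7.15 and PLK2 6.53, 6.54 and 6.87, differing by -0.13 ± 0.19, 0.08 ± 0.16 and -0.00095 ± 0.21. TP53I3 read 8.73, 8.72 and 9.15, XPC 10.08, 10.09 and 10.23 and TIGAR 8.36, 8.62 and 9.11, differing by 0.29 ± 0.19, 0.01 ± 0.12 and 0.18 ± 0.21. Each of these overlapped its control levels. In the BCL2 family BAX read 10.89, 10.89 and 11.31, BCL2 6.52, 6.51 and 6.75 and BCL2L1 11.37, 11.23 and 11.18, with differences of 0.03 ± 0.15, -0.05 ± 0.12 and -0.14 ± 0.11.

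With SOX2 shRNA the p53 targets CDKN1A, GADD45A, TP53INP1, SESN2 and TNFRSF10B were higher than control, and 0 of the 20 tested were lower. The change within the SOX2 arm over the week was not tested either, so the same limit holds here as for NANOG shRNA. BMF was higher and BIK, MCL1 and the caspase activator APAF1 were lower. In all, 9 of 35 members (25.7%) were called, against 8.21% of all genes, 6 higher (3.54% of all genes) and 3 lower (4.67% of all genes). The median over the 20 p53 targets was 0.26 and over the BCL2 family -0.14, against -0.0012 over all genes. Of the 9 calls, those of GADD45A, BIK and BMF held without any single array or day.

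With SOX2 shRNA CDKN1A read 12.19, 12.05, 11.61 and 11.60, all above the control levels of those days (11.28, 11.02, 10.78 and 10.28). It differed by 1.02 ± 0.25 (adjusted p = 0.00792); without the control array of day 7 the difference was 0.84 (adjusted p = 0.0545) and without day 5 of all arms 1.02 (adjusted p = 0.0663). GADD45A read 9.23, 8.98, 8.69 and 9.01 (0.76 ± 0.16, adjusted p = 0.00225), also above every control level. BMF, a BH3-only protein released from the cytoskeleton, read 7.76, 7.73, 7.93 and 7.94 with SOX2 shRNA and 7.31, 7.14, 7.43 and 7.17 in control. These did not overlap, and the difference was 0.58 ± 0.14 (adjusted p = 0.00607). BIK read 6.10, 5.97, 6.04 and 6.37, below background on all 4 late arrays, while control rose to 7.13 on day 7, so BIK was at least 1.24-fold lower (adjusted p = 0.000236).

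The other calls of the SOX2 arm were weaker. TP53INP1 was higher by 0.51 ± 0.13 (adjusted p = 0.0106), lost without the control array of day 7 (0.41, adjusted p = 0.0739) or the SOX2 array of day 5 (0.44, adjusted p = 0.0625). SESN2, a stress-induced inhibitor of mTORC1, was higher by 0.50 ± 0.16 (adjusted p = 0.0491), with 0.39 (adjusted p = 0.205) without the control array of day 7. TNFRSF10B was higher by 0.43 ± 0.13 (adjusted p = 0.034), with 0.38 (adjusted p = 0.0981) without the control array of day 6. Its other probes gave 0.41 (adjusted p = 0.0618) and 0.31 (adjusted p = 0.12). MCL1 read 10.22, 10.01, 9.73 and 10.17 and was lower (-0.42 ± 0.13, adjusted p = 0.0318), with -0.32 (adjusted p = 0.159) without the SOX2 array of day 6. A second MCL1 probe gave -0.29 (adjusted p = 0.214). APAF1 was lower (-0.42 ± 0.12, adjusted p = 0.0257), with -0.35 (adjusted p = 0.123) without the SOX2 array of day 5. The second, dimmer APAF1 probe gave -0.14 (adjusted p = 0.532).

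PMAIP1 with SOX2 shRNA was lowest on day 5 and level with control on day 7. It read 8.88 and 9.06 on days 2 and 3 and 8.43, 8.01, 8.80 and 9.45 on days 4 to 7, and did not pass (-0.43 ± 0.23, adjusted p = 0.281). GDF15 read 9.68, 9.59, 9.44 and 9.37 (0.60 ± 0.23, adjusted p = 0.101) and RRM2B 10.24, 10.04, 9.73 and 9.56 (0.23 ± 0.20, adjusted p = 0.568), and neither passed. MDM2 read 7.12, 6.81, 6.83 and 6.70 (-0.07 ± 0.13, adjusted p = 0.825) and BBC3 7.998, 8.30, 7.97 and 7.97 (0.17 ± 0.11, adjusted p = 0.42). PERP read 7.67, 7.50, 7.74 and 7.70, SPATA18 6.74, 7.03, 6.98 and 6.86, PLK2 7.12, 6.77, 7.06 and 6.68 and XPC 9.93, 10.001, 10.12 and 10.24, with differences between -0.25 (PERP) and 0.26 (PLK2). TP53I3 read 8.82, 9.15, 9.25 and 8.96 (0.47 ± 0.18, adjusted p = 0.108) and TIGAR 8.86, 9.22, 8.87 and 8.94 (0.46 ± 0.20, adjusted p = 0.164). Neither passed, nor did BAX at 11.13, 10.99, 11.16 and 10.85, BCL2 at 6.44, 6.40, 6.66 and 6.29 and BCL2L1 at 11.22, 11.24, 11.05 and 11.28, whose differences were 0.03 ± 0.14, -0.20 ± 0.11 and -0.20 ± 0.10.

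Counts of pathway genes outside the members are given for these arms beside the all-gene shares above. With NANOG shRNA 4 of 26 further p53 targets were higher and 0 lower, led by CYFIP2 (0.54 ± 0.13). Of 22 further apoptosis genes 2 were higher and 0 lower, and CASP2 was the larger (0.78 ± 0.12). Of 12 regulators of p53, TP53BP1 (1.05 ± 0.17) and HIPK2 (0.57 ± 0.16) were higher and 0 lower. Of 14 amino acid and ER stress genes 3 were higher, TRIB3 (0.91 ± 0.16), ASNS (0.86 ± 0.19) and PSAT1 (0.69 ± 0.16). The lower one was VLDLR (-1.77 ± 0.23). With SOX2 shRNA 2 of 26 further p53 targets were higher (TP53I11, 0.73 ± 0.20, and PIDD1, 0.55 ± 0.16), as was HTRA2 among the apoptosis genes (0.47 ± 0.11). The amino acid and ER stress genes gave 0 calls of 14 with SOX2 shRNA. Dividing-cell genes gave 1 call in each arm, TYMS higher with NANOG shRNA and BUB1 lower with SOX2 shRNA.

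Tested directly against each other on days 4 to 7, the arms differed in many members. The NANOG arm had no array of day 7, so its window was shorter than those of the OCT4 and SOX2 arms. Members still moving on day 7 with OCT4 shRNA may therefore differ from NANOG shRNA partly by day. Between OCT4 and NANOG shRNA 18 of 35 members (51.4%) were called, against 42.9% of all genes, and between OCT4 and SOX2 shRNA 25 (71.4%), against 46.9% of all genes. PERP was higher with OCT4 shRNA than with NANOG shRNA by 1.95 ± 0.19 and than with SOX2 shRNA by 2.07 ± 0.17, and XPC by 0.96 ± 0.12 and 1.02 ± 0.11. GADD45A was also higher with OCT4 shRNA, by 0.71 ± 0.17 and 1.10 ± 0.16. GDF15 was lower with OCT4 than with SOX2 shRNA (-2.15 ± 0.23), while its difference from NANOG shRNA did not pass (-0.59 ± 0.24). PMAIP1 was lower with OCT4 shRNA, with differences of -1.13 ± 0.24 from NANOG and -2.02 ± 0.23 from SOX2 shRNA, although its second probe gave -0.02 (adjusted p = 0.942) against NANOG. CDKN1A was higher with OCT4 than with NANOG shRNA (0.80 ± 0.27), a call lost without the OCT4 array of day 7 (0.55, adjusted p = 0.0993), and its difference from SOX2 shRNA did not pass (-0.32 ± 0.25). MDM2 was higher with OCT4 than with SOX2 shRNA by 0.32 ± 0.13 (adjusted p = 0.039), with 0.25 (adjusted p = 0.139) without the OCT4 array of day 7. Of the calls in these comparisons, 10 of 18 and 13 of 25 held without any single array or day. The days left out include day 7 of all arms, which gives the OCT4 and NANOG arms the same window.

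On days 2 and 3 few members had moved. With OCT4 shRNA 5 of 35 (14.3%) were called, against 5.21% of all genes. BMF read 8.19 and 8.57 against 7.18 and 7.23 in control, a difference of 1.18 ± 0.20 (adjusted p = 0.000258), and on days 4 to 7 this probe was near control (7.39 ± 0.34, n = 4, against 7.26 ± 0.14, n = 4), while the second BMF probe was still higher, as given above. PERP (0.90 ± 0.25) and GADD45A (0.77 ± 0.23) were higher, and PMAIP1 (-1.14 ± 0.32) and RRM2B (-0.96 ± 0.28) lower. Without the OCT4 array of day 3 the adjusted p was between 0.477 and 0.73 for these 4, and of the arrays and days left out, day 3 of all arms ended the call of BMF (1.01, adjusted p = 0.214). With NANOG shRNA 2 members (5.71%) were called, against 3.92% of all genes: GDF15 (-1.66 ± 0.32) and RRM2B (-1.24 ± 0.28), and with the day as a block 6 were called. Both calls were lost without the control array of day 3, at -1.32 (adjusted p = 0.127) and -1.13 (adjusted p = 0.149). With SOX2 shRNA limma called 0 members, against 0.406% of all genes, with 4 at an unadjusted p under 0.05 (MDM4, TNFRSF10B, TP53INP1 and PHLDA3).

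The changes within the control and OCT4 arms, days 4 to 7 minus days 0 and 1, allow H9 to be set beside H1. Those within the NANOG and SOX2 arms were not tested. In the H1 control limma called 0 of 35 members, against 0.532% of all genes, with 8 at an unadjusted p under 0.05; BIK came nearest (adjusted p = 0.0753), and with the day as a block 1 member was called. In the H1 OCT4 arm 16 members (45.7%) were called, against 41.7% of all genes, 8 higher (21.6% of all genes) and 8 lower (20.1% of all genes). In the H9 OCT4 arm 9 members (25.7%) were called, against 26.8% of all genes, 5 higher (13.8% of all genes) and 4 lower (13% of all genes). These shares lie close to those of all genes. Of the 16 calls in H1, 7 held without any single array or day, and those of TP53I3 (0.66), PLK2 (0.79), TIGAR (0.62) and BBC3 (-0.41) were lost without the array of day 0. When the change of the control was subtracted from that of H1 OCT4 shRNA, 9 members (25.7%) remained called by that test, against 23.7% of all genes. They were GADD45A (1.86 ± 0.28), PERP (1.57 ± 0.30), PLK2 (1.49 ± 0.34), SPATA18 (1.20 ± 0.25), XPC (1.19 ± 0.19), TP53I3 (0.87 ± 0.31), PMAIP1 (-2.42 ± 0.39), GDF15 (-1.64 ± 0.39) and BAX by its brighter probe (-1.01 ± 0.25). The call of TP53I3 was lost in 16 of 27 settings, with values of 0.30 (its second probe) to 1.05 over the settings, and that of BAX without day 0 of all arms (-0.76, adjusted p = 0.133). The other 7 held without any single array or day. No such subtraction is possible in H9.

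PMAIP1 fell in both lines. In H9 it read 9.47, 9.45, 8.44, 8.61, 8.50, 7.62, 7.60 and 7.50 from day 0 to day 7, and in H1 with OCT4 shRNA 9.13, 8.98, 8.50, 7.75, 6.89, 6.41, 6.63 and 6.65. The changes were -1.65 ± 0.28 (adjusted p = 3.58e-05) in H9 and -2.41 ± 0.28 (adjusted p = 2.21e-08) in H1, and each held without any single array or day. The difference between the lines did not pass (0.76 ± 0.39, adjusted p = 0.151). SPATA18 rose in both, by 0.55 ± 0.18 in H9 and 1.36 ± 0.18 in H1, the H9 call being lost without its array of day 1 (0.42, adjusted p = 0.23). BIK was called higher in both (adjusted p = 0.0109 in H9 and 0.00801 in H1), but it was above background on 9 of 39 arrays and below it on days 0 and 1 in every arm, so no size is given. Without the H9 array of day 0 its adjusted p there was 0.104. ZMAT3, an RNA-binding target of p53, fell by its brightest probe in both (-1.26 ± 0.25 in H9 and -0.63 ± 0.25 in H1), but its other probes gave 0.14 and -0.59 in H9 and 0.09 and 0.24 in H1.

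Among p53 targets, CDKN1A, DDB2 and SESN1 rose in H9. CDKN1A read 10.37 and 9.61 on days 0 and 1 and 10.99, 11.27, 11.43 and 11.46 on days 4 to 7 in H9, a change of 1.30 ± 0.31 (adjusted p = 0.00196). In H1 with OCT4 shRNA it began at 11.69 and 11.80 and its change did not pass (-0.20 ± 0.31, adjusted p = 0.651), so the H9 course started lower and ended within the late H1 range. Without its array of day 1 the H9 change was 0.92 (adjusted p = 0.107). DDB2 read 7.06 and 6.93 and then 8.09, 7.90, 7.96 and 7.84 in H9 (0.95 ± 0.18, adjusted p = 0.000218), and 8.22 and 7.85 and then 7.91, 7.57, 7.32 and 7.45 in H1 (-0.47 ± 0.18, adjusted p = 0.0385). The H9 rise held without any array, and the H1 fall did not, at -0.29 (adjusted p = 0.398) without its array of day 0. SESN1, a sestrin like SESN2, changed by 0.63 ± 0.20 in H9 and by -0.54 ± 0.20 in H1, calls lost without the H9 array of day 0 (0.64, adjusted p = 0.0892) and the H1 array of day 0 (-0.51, adjusted p = 0.141). SESN2 (-0.73 ± 0.20) and BID (-0.77 ± 0.19) fell in H9, the SESN2 call resting on its array of day 0 (-0.34, adjusted p = 0.364 without it).

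GADD45A read 9.04 and 8.98 and then 8.37, 8.63, 9.28 and 9.001 in H9 and did not change by the test (-0.19 ± 0.20, adjusted p = 0.538), against 1.31 ± 0.20 (adjusted p = 2.74e-06) in H1. PERP read 8.28 and 8.19 and then 8.43, 8.52, 8.55 and 9.25 in H9 (0.45 ± 0.21, adjusted p = 0.119), with day 7 the highest. XPC (0.12 ± 0.13), TP53I3 (-0.13 ± 0.22), PLK2 (0.07 ± 0.24) and TIGAR (0.11 ± 0.24) did not pass in H9. GDF15 (0.16 ± 0.28), MDM2 (-0.05 ± 0.16), RRM2B (-0.25 ± 0.24), MCL1 (-0.04 ± 0.15) and BCL2L1 (-0.24 ± 0.13) did not pass there either by their brightest probes. A second MCL1 probe, with a mean level of 9.16, was lower in H9 (-0.76, adjusted p = 0.000795), so the MCL1 result in H9 depends on the probe. The second BAX probe was lower there too (-0.50, adjusted p = 0.0211), while the brighter one did not pass (-0.36 ± 0.18). On days 4 to 7 the H9 levels were 8.47 ± 0.32 for GDF15, 6.88 ± 0.06 for MDM2, 8.25 ± 0.17 for RRM2B, 9.85 ± 0.15 for MCL1 and 11.05 ± 0.24 for BCL2L1 (mean ± SD, n = 4).

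The difference between the lines was tested for each member, and 12 of 35 (34.3%) were called, against 28.3% of all genes. The change was more positive in H1 for GADD45A (H9 minus H1 -1.50 ± 0.28), PERP (-1.28 ± 0.30), BID (-1.04 ± 0.28), XPC (-0.94 ± 0.19), TP53I3 (-0.89 ± 0.31) and SPATA18 (-0.82 ± 0.25). It was more positive in H9 for CDKN1A (1.50 ± 0.44), DDB2 (1.43 ± 0.26), GDF15 (1.21 ± 0.39), SESN1 (1.18 ± 0.28), BAX by its brighter probe (0.95 ± 0.25) and BBC3 (0.61 ± 0.19). Those of GADD45A, XPC, DDB2 and SESN1 held without any single array or day. CDKN1A lost its call without the H9 array of day 1 (1.12, adjusted p = 0.104) and BBC3 without the H1 array of day 0 (0.36, adjusted p = 0.232). TP53I3 (-0.78, adjusted p = 0.126) and BAX (0.77, adjusted p = 0.0534) lost theirs without that same array, GDF15 without the H9 array of day 1 (1.11, adjusted p = 0.0794) and SPATA18 without the H9 array of day 0 (-0.69, adjusted p = 0.0953). Leaving out day 0 of all arms ended the call of BID (-1.08, adjusted p = 0.0561), and day 1 that of PERP (-1.03, adjusted p = 0.0729). The second BAX probe gave -0.68 (adjusted p = 0.0268), again the opposite sign. Of 35 members 6 were called in both lines, 37.5% of those called in H1 and 66.7% of those called in H9, beside 33.3% and 51.9% over all genes. They were PMAIP1, SPATA18, BIK and ZMAT3 with the same sign, and DDB2 and SESN1 with opposite signs. Over all genes called in both lines 77.7% had the same sign. Across the 35 members the 2 changes had Pearson's r of 0.396 and Spearman's rho of 0.222, against r = 0.313 over all genes, as a description only.

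**Figure D4:**
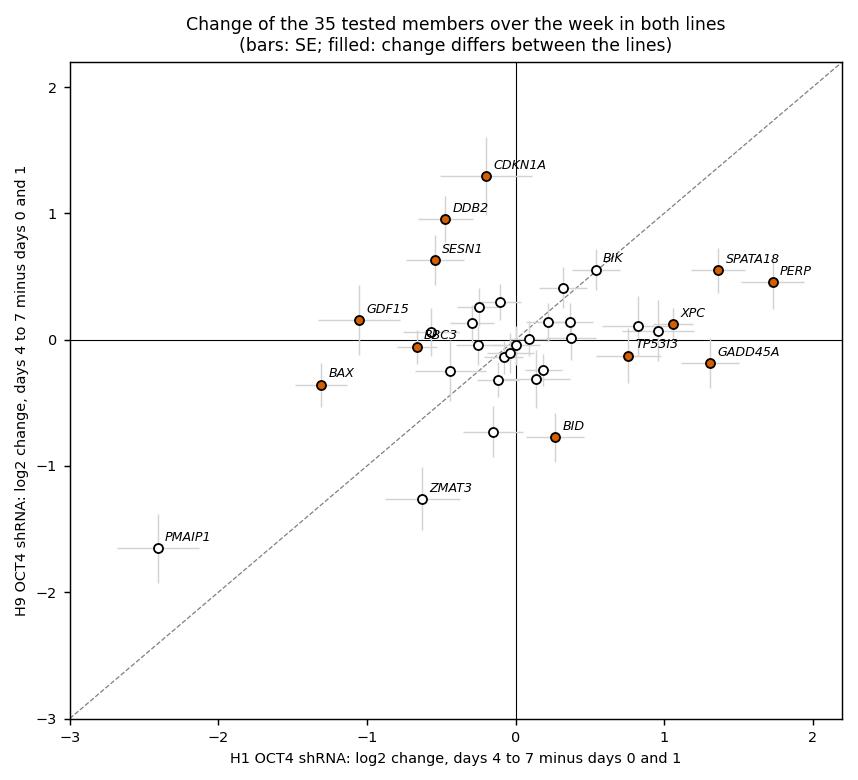
Change of each of the 35 tested members over the week with OCT4 shRNA, in H1 (x axis) and in H9 (y axis), in log2 units with SE bars; filled points are the 12 members whose change differed between the lines and the dashed line marks equal change. PMAIP1 lies far below 0 on both axes, CDKN1A, DDB2 and SESN1 are above 0 in H9 and below 0 in H1, and GADD45A and XPC are above 1 in H1 and near 0 in H9.

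In the H9 columns the deposited values of 18 of the 35 members, PMAIP1, PERP, SPATA18, XPC, SESN1 and ZMAT3 among them, had to be moved by 2 rows to fit their probes, while CDKN1A, DDB2, GADD45A, GDF15, BAX, BBC3 and BID lay before the break and needed no move. Over the week in H9, 1 dividing-cell gene was higher and 2 were lower of 14, against 12 lower in H1, 2 of 13 trophoblast and amnion markers rose, 2 of 6 neuroectoderm markers rose (SIX3 by 2.42 and LHX5 by 1.23) against 0 higher and 1 lower in H1, and amino acid and ER stress genes fell (9 of 14, against 8 of 14 in H1). In the H1 control, 3 of these 14 stress genes fell as well, beside 50 of all 13544 genes. With the change of control subtracted, 4 of the 14 were lower and 1 higher with H1 OCT4 shRNA. The part of these values, and of the POU5F1 levels, in the difference between the lines was not tested.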

How the data were processed

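RNA from 40 samples was hybridised as biotinylated cRNA to Illumina bead arrays, per the labels' protocols. The deposited intensities of the 39 arrays used had been quantile normalized by the authors, judged from the files: at least 98.3% of each array's values recur on the first array, and the medians lie between 135.6 and 135.7. The software is not given in the sources used here. The H9 values from row 13056 on were moved by 2 rows to match their probes, which dropped 30 probes. The correlation with the H1 OCT4 arm there was 0.225 as deposited and 0.985 once moved. A further 80 value columns that match no label were not used.

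Intensities were background corrected (normexp, offset 50) and put on the log2 scale, whose values are not the deposited ones. Probes above 145, a level set from the median and robust SD of 457 olfactory receptor probes, on at least 4 arrays were kept, and each gene was read from its probe with the highest mean. Offset and filter were chosen with the files in view. Gene names came from the platform annotation and promoters from RefSeq. limma 3.58.1 in R 4.3.3 fitted 1 mean for each arm and window (days 0 and 1, 2 and 3, 4 to 7) with a shared spread, and the procedure was tested on simulated data. Figures used matplotlib 3.10.9. The number in each label follows the day, so numbers pair arrays of a day across arms; the deviations of 56 same-day pairs correlated with a median of 0.127 (-0.14 to 0.45), 33 of them over 0.1. Members and lists were chosen with earlier results of these data known. By the rule for named genes, every late array is given for up to 12 members called in an H1 arm with a log2 difference of at least 0.5, and for MDM2, CDKN1A, BBC3, PMAIP1, BAX, BCL2, MCL1 and BCL2L1. The slide of each array was not available to the fit as a block. The number of arrays, 1 per arm and day, limits the precision. Alternatives covered no background correction, quantile normalization after normexp, the filter, the probe, the replicate block, and leaving out each array or day. The offset was not varied.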

Additional observations from a re-analysis of the deposited data

Results flagged for a closer look

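In 5 of 72 late groups of 4 arrays, 1 array lay far from the other 3 by Dixon's criterion, and chance gives about 1 in 20. They were SPATA18 with H1 OCT4 shRNA on day 4 (7.53), BBC3 with SOX2 shRNA on day 5 (8.30), and, in H9, PMAIP1 on day 4 (8.50), XPC on day 4 (10.75) and PERP on day 7 (9.25).

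The change over the week with OCT4 shRNA differed between H9 and H1 for 12 members by limma's test of the difference. H9 minus H1 was 1.50 for CDKN1A (adjusted p = 0.00996), 1.43 for DDB2 (adjusted p = 0.000106), 1.21 for GDF15 (adjusted p = 0.0198), 1.18 for SESN1 (adjusted p = 0.00168), 0.95 for BAX (adjusted p = 0.00422) and 0.61 for BBC3 (adjusted p = 0.0158). It was -1.50 for GADD45A (adjusted p = 0.000144), -1.28 for PERP (adjusted p = 0.0018), -1.04 for BID (adjusted p = 0.00478), -0.94 for XPC (adjusted p = 0.000358), -0.89 for TP53I3 (adjusted p = 0.0303) and -0.82 for SPATA18 (adjusted p = 0.0155).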

How the results depend on the processing

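Counts of members called stayed within 1.5 times in 243 of 274 planned and 10 of 11 added settings, the added ones chosen after seeing the data. With the day as a replicate block the count with NANOG shRNA on days 2 and 3 went from 2 to 6 and that of the control's change from 0 to 1; the pairing changed no other count by as much. Without the H9 arm in the fit the former was 5. Testing every passing probe singly gave 32 calls for late OCT4 shRNA among the 56 passing probes of members, a count of probes and not of genes. Leaving out single arrays or days gave 16 to 21 calls for late OCT4, 2 to 7 for NANOG and 3 to 9 for SOX2 shRNA; 0 to 6 for OCT4, 0 to 6 for NANOG and 0 to 0 for SOX2 shRNA on days 2 and 3; 13 to 18 for OCT4 against NANOG and 16 to 26 for OCT4 against SOX2; and 0 to 2, 7 to 17 and 4 to 11 for the changes in control, H1 OCT4 and H9 OCT4, 7 to 10 for H1 OCT4 minus control and 6 to 15 for H9 minus H1.

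All 14 reversals came from other probes of the gene, and the cause was not tested. The second BAX probe gave 0.33 for late OCT4, 0.31 against NANOG, 0.53 against SOX2, 0.17 for the H1 change, 0.48 after subtracting control and -0.68 for H9 minus H1. Another TNFRSF10B probe gave 0.13 and 0.087 for OCT4 against NANOG and SOX2. Against SOX2, TP53I3 gave -0.057 and BID -0.014, and BID gave 0.075 for H9 minus H1. ZMAT3 gave 0.086 and 0.24 for the H1 change and 0.14 for the H9 change. Each arm is 1 time course, and probes near background limit BCL2, BIK, CASP8 and BCL2L11. A fit with the slide as a block was not run.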
